A study of Mus musculus with 6 samples.

Results

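The genes described here are 10 regulators and stage markers of the oligodendrocyte lineage, taken by symbol from a table of 19251 genes: Pdgfra, Cspg4, Olig1, Olig2, Sox10, Nkx2-2, Gpr17, Enpp6, Nkx6-2 and Myrf. All 10 were in the table and all 10 passed the filter on low counts. The study set intermittent fasting against free feeding in mice with a viral alpha-synuclein model of Parkinson's disease. RNA with poly(A) tails was sequenced from substantia nigra, the midbrain nucleus of dopaminergic neurons, of C57BL/6 animals, with 3 libraries for intermittent fasting and 3 for ad libitum feeding. The fasting mice went without food for 24 hours on 3 days a week, for 10 weeks, beginning 2 weeks after surgery. The ad libitum mice were handled and moved between cages in the same way and had the same surgery. Both groups carried rAAV-A53T-aSynuclein, a recombinant adeno-associated virus that delivers mutant human alpha-synuclein, so every difference below is between diets in animals that have received the vector. The sources used here do not give the vector's promoter, the age of the mice or how long after a fast tissue was taken.

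Oligodendrocytes, the cells that wrap axons in myelin, arise from precursors that persist in the adult brain. Precursors carry the growth factor receptor encoded by Pdgfra and the NG2 proteoglycan encoded by Cspg4, and lose both as they mature. Olig1, Olig2 and Sox10 are transcription factors present from precursor to mature cell, Nkx2-2 helps to start differentiation, Gpr17 and Enpp6 mark a short immature stage, and Nkx6-2 and Myrf belong to the myelinating cell. The lineage is abundant in the midbrain, which many myelinated fibres cross.

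Between 42990234 and 48179706 counts were obtained per library. Th and Slc6a3, which mark dopaminergic neurons, were present in every library: Th was at 93.7 to 189 CPM (counts scaled to a library total of 1000000) under fasting and at 86.3 to 236 CPM ad libitum, and Slc6a3 at 180 to 402 CPM under fasting and at 240 to 653 CPM ad libitum. The myelin genes Mbp and Mobp had means of at least 1736 CPM in both groups. Ad libitum replicate 2 stood apart, with Chat, a gene of cholinergic neurons, at 22.9 CPM against at most 2.14 CPM elsewhere, and Pmch, a hypothalamic peptide gene, at 432 CPM against at most 125 CPM. This library also gave the highest ad libitum value of 9 of the 10 regulators, so the values of all 10 without it are given below.

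Promoters of 3 genes are shown, of the precursor, the immature and the mature stage, chosen because their windows are free of exons. The groups overlapped between the diets for Pdgfra and did not for Enpp6 and Nkx6-2. The windows are the 250 bases before the RefSeq start on GRCm38.p6, an older build than that of the counts, and none of these bases lies in an annotated exon. Capitals mark matches on either strand to ACAATG or ACAAAG, forms of the motif of SOX proteins, or to CANNTG, the E-box motif of basic helix-loop-helix proteins such as Olig1 and Olig2. No match shown shares letters with another motif. Of 32851 promoter windows of the same length, 10.7% hold ACAATG, 16.5% hold ACAAAG and 66.2% hold CANNTG.
Pdgfra, chr5:75152001-75152250, plus strand: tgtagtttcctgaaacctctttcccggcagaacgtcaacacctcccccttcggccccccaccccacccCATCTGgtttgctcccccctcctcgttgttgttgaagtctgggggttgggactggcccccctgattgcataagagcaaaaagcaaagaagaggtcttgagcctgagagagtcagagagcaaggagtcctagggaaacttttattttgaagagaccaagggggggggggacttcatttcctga
Enpp6, chr8:46986637-46986886, plus strand: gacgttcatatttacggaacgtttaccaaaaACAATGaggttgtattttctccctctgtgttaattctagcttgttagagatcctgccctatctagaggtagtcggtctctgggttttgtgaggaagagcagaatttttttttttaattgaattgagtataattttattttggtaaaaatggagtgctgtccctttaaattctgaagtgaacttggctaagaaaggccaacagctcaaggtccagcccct
Nkx6-2, chr7:139582798-139583047, minus strand: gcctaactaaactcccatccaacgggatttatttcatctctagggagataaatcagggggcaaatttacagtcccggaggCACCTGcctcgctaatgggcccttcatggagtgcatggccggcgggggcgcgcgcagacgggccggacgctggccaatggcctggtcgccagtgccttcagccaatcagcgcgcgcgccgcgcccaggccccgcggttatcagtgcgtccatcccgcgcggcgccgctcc
The Pdgfra window held 1 E-box, at 182 to 177 bases before the start, and neither SOX form. The Enpp6 window held 1 ACAATG, at 219 to 214 bases before the start, and no E-box. The Nkx6-2 window held 1 E-box, at 170 to 165 bases before the start, and neither SOX form. Of the other windows searched, that of Olig2 held 1 ACAATG, that of Nkx2-2 held 3 E-boxes and that of Cspg4 held no match. These matches are letters in a window, not measured binding.

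Under fasting, 9 of the 10 regulators had lower values in all 3 libraries than in any ad libitum library, and the exception was the precursor receptor gene Pdgfra. Sox10 had the largest difference, at 0.591 of its ad libitum level, followed by Enpp6 at 0.606 and Olig2 at 0.652. No regulator passed an adjusted p of 0.05 over all genes in edgeR's quasi-likelihood test, a threshold passed by 0.497% of the 19109 genes tested, 0.351% lower and 0.147% higher. At an unadjusted p below 0.05 these 9 were lower, against 20.4% of all genes tested, 11.6% lower and 8.74% higher, and 8 had an edgeR adjusted p below 0.1, as did 3.21% of all genes in the lower direction. Groups did not overlap in 27.5% of all genes tested, with fasting lower in 15%, against 9 of the 10. DESeq2 called the same 9 lower, where it called 7.4% of the 18842 genes it tested, and 4.51% in the lower direction. The median log2 fold change of the 10 was -0.55, beside -0.005 for all genes tested. Without ad libitum replicate 2 the same 9 were at an unadjusted p below 0.05, as were 18.5% of all genes tested. The median of the 10 was then -0.45. The log2 fold changes were then -0.24 for Cspg4, -0.43 for Olig1, -0.53 for Olig2, -0.62 for Enpp6, -0.37 for Nkx6-2 and -0.47 for Myrf, with Pdgfra at -0.01. With ad libitum replicate 1 left out, edgeR called 6 of the 10, all lower (Cspg4, Olig1, Sox10, Nkx2-2, Gpr17 and Enpp6), where it called 3.89% of all genes lower. With any of the other 5 libraries left out it called 0 of the 10. In bulk tissue, fewer cells of a type and less RNA per cell cannot be told apart. That each library came from a separate mouse is not stated, so p-values measure the spread between these samples.

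**Figure D1:**
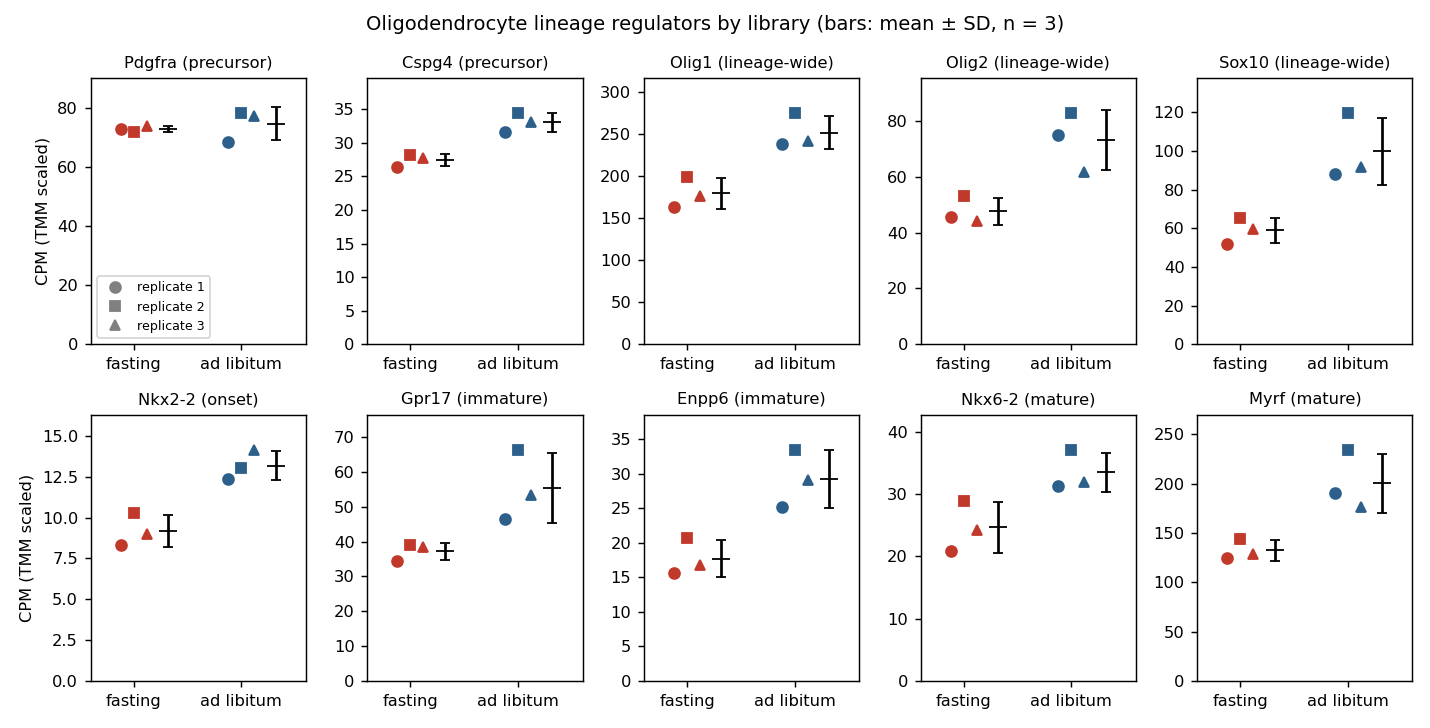
Level of each of the 10 genes in CPM (vertical axes, from 0) in the 3 fasting libraries (red, left) and the 3 ad libitum libraries (blue, right), with the shape giving the replicate and black bars the mean and SD. The groups overlap for Pdgfra, at 72.1 to 73.9 CPM under fasting and 68.4 to 78.4 CPM ad libitum, and do not overlap for the other 9.

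The 2 precursor genes differed from each other. Pdgfra (ENSMUSG00000029231) encodes the receptor through which platelet-derived growth factor keeps precursors alive and dividing. It was at 73.0, 72.1 and 73.9 CPM in fasting replicates 1, 2 and 3, against 68.4, 78.4 and 77.5 CPM in ad libitum replicates 1, 2 and 3. The fasting values lay inside the ad libitum range. Its log2 fold change was -0.03, with a 95% interval of -0.19 to 0.12 (SE 0.06, edgeR adjusted p = 0.796), so a difference of up to 0.19 in the lower direction is within the interval. Cspg4 (ENSMUSG00000032911) encodes NG2, a surface proteoglycan. It was at 26.4, 28.3 and 27.7 CPM under fasting and at 31.7, 34.4 and 33.1 CPM ad libitum. All fasting values were below all ad libitum values, by 16.9% between the means (log2 fold change -0.27, SE 0.06, edgeR adjusted p = 0.0812).

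Pdgfra is also made by fibroblasts and Cspg4 by pericytes, so markers of both were read beside them. Among all genes tested, 11.6% were lower at an unadjusted p below 0.05. Of 9 fibroblast genes 0 were called, 3 had an unadjusted p below 0.05, all lower under fasting, and the median log2 fold change was -0.47, or -0.20 without ad libitum replicate 3. Their summed level was 371 to 448 CPM under fasting and 437 to 601 CPM ad libitum. Most of it was Apod, a lipid carrier gene that oligodendrocytes also express, at 282 to 343 CPM under fasting and 343 to 485 CPM ad libitum. The other 8 genes summed to 89.6 to 105 CPM under fasting and 87.1 to 194 CPM ad libitum, which overlap, and the smallest p belonged to the matrix genes Ogn (3.49 ± 0.683 CPM under fasting, 8.35 ± 3.78 CPM ad libitum) and Col1a1 (6.81 ± 0.511 CPM under fasting, 9.94 ± 2.72 CPM ad libitum). Of 11 pericyte and mural genes 0 were called and 4 were lower at that p, with a median of -0.13, or -0.20 without fasting replicate 3. Their sum was 228 to 245 CPM under fasting and 262 to 284 CPM ad libitum, with Anpep at -0.78 and Rgs5 at -0.38 on the log2 scale. The part of these cells in the values of Pdgfra and Cspg4 was not tested.

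The 3 transcription factors that act throughout the lineage all had lower values under fasting. Olig1 (ENSMUSG00000046160), a basic helix-loop-helix factor that acts in maturation and remyelination, was at 163, 199 and 176 CPM under fasting and at 238, 275 and 242 CPM ad libitum. Olig2 (ENSMUSG00000039830), the related factor needed to specify the lineage, was at 45.6, 53.2 and 44.2 CPM under fasting and at 75.1, 82.8 and 61.8 CPM ad libitum. Neither gene's groups overlapped, and the log2 fold changes were -0.49 for Olig1 (SE 0.09, edgeR adjusted p = 0.0685) and -0.62 for Olig2 (SE 0.12, edgeR adjusted p = 0.0712). Sox10 (ENSMUSG00000033006), the HMG-box factor that drives Myrf and the myelin genes, was at 52.1, 65.2 and 59.7 CPM under fasting and at 88.1, 120 and 91.9 CPM ad libitum. Its highest fasting value was well below its lowest ad libitum value, which was 1.35 times as high, the widest such gap among the 10. The log2 fold change of Sox10 was -0.76 (SE 0.14, edgeR adjusted p = 0.0685), and -0.61 without ad libitum replicate 2.

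Nkx2-2 (ENSMUSG00000027434), a homeodomain factor that promotes the step out of the precursor state, was at 8.30, 10.3 and 8.998 CPM under fasting and at 12.4, 13.03 and 14.1 CPM ad libitum. It was the 1 gene of the 10 whose highest ad libitum value came from replicate 3. The log2 fold change was -0.52 (SE 0.10, edgeR adjusted p = 0.0708) and -0.53 without ad libitum replicate 2. The groups overlapped for Nkx2-2os, a gene that shares exonic sequence with it on the opposite strand.

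Both genes of the immature stage had lower values under fasting as well. Gpr17 (ENSMUSG00000052229), an orphan receptor that restrains the final maturation of these cells, was at 34.4, 38.9 and 38.4 CPM under fasting, against 46.6, 66.3 and 53.3 CPM ad libitum. Its ad libitum libraries were spread 1.42-fold, the widest spread of any of the 10 within that group, and its log2 fold change, -0.57 (SE 0.13, edgeR adjusted p = 0.0900), came to -0.43 without ad libitum replicate 2. Gpr17 overlaps exons of Lims2 on the opposite strand, and whether counting used strand is not given. Lims2 was at 11.2 ± 0.156 CPM under fasting and 14.5 ± 2.31 CPM ad libitum, without overlap between the diets (log2 fold change -0.36, edgeR adjusted p = 0.163). The part of Lims2 in the Gpr17 counts, and that of Gpr17 in the Lims2 counts, was not tested. Enpp6 (ENSMUSG00000038173), a choline phosphodiesterase of newly forming oligodendrocytes, was at 15.7, 20.8 and 16.8 CPM under fasting and at 25.2, 33.5 and 29.1 CPM ad libitum. The groups did not overlap, and the log2 fold change was -0.72 (SE 0.14, edgeR adjusted p = 0.0704).

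The mature-stage factors gave differences of similar size. Myrf (ENSMUSG00000036098), a membrane-bound factor that cleaves itself and is needed for myelin gene transcription, was at 124, 144 and 128 CPM under fasting and at 190, 234 and 176 CPM ad libitum. Fasting was lower in every library, by 33.9% between the means (log2 fold change -0.60, SE 0.12, edgeR adjusted p = 0.0685). Nkx6-2 (ENSMUSG00000041309), a homeodomain factor of myelinating cells, was at 20.9, 28.9 and 24.2 CPM under fasting and at 31.4, 37.1 and 31.9 CPM ad libitum. The groups came close, with the lowest ad libitum value 1.08 times the highest fasting value, and the log2 fold change was -0.44 (SE 0.13, edgeR adjusted p = 0.133). Nkx6-2 overlaps exons of Inpp5a on the opposite strand, and for Inpp5a the diets overlapped (0.23 on the log2 scale, edgeR adjusted p = 0.565).

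**Figure D2:**
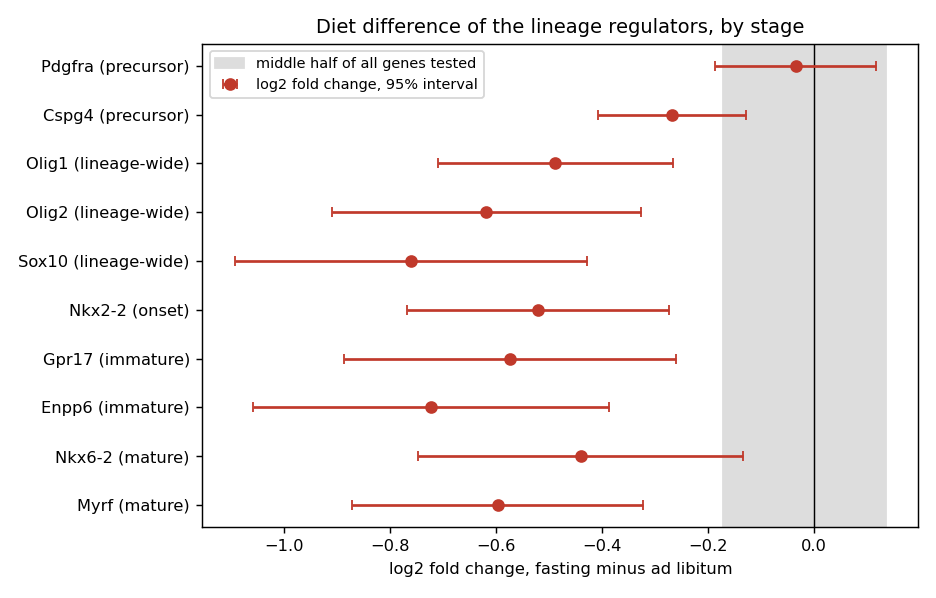
Log2 fold change, fasting minus ad libitum (horizontal axis), for each of the 10 genes, with 95% intervals from edgeR, ordered by stage from precursor at the top to mature at the bottom. The grey band holds the interquartile range of all genes tested, from -0.17 to 0.14; Pdgfra lies inside it at -0.03 and the other 9 lie to its left, from -0.27 for Cspg4 to -0.76 for Sox10.

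By stage, the median log2 fold change was -0.15 for the precursor genes, -0.62 for the lineage-wide factors, -0.52 for Nkx2-2, -0.65 for the immature genes and -0.52 for the mature factors. Without ad libitum replicate 2 the same medians were -0.12, -0.53, -0.53, -0.52 and -0.42. These are descriptions of 1 to 3 genes each and carry no test.

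To compare stages within a library, the count of each of the other 9 genes was divided by the Pdgfra count of the same library, a ratio that does not depend on how libraries are scaled. All 9 ratios were lower under fasting and none overlapped between diets. The share of all genes whose ratio to Pdgfra separates the diets was not counted, and on CPM 27.5% of all genes tested did not overlap. Pdgfra itself had a log2 fold change of -0.03, so the ratio differences largely repeat the log2 fold changes given above. Myrf counts were 1.81 times the Pdgfra count under fasting and 2.66 times ad libitum (geometric means of 3 libraries), and Sox10 counts were 0.805 and 1.33 times it. On the log2 scale Sox10 to Pdgfra was at -0.49, -0.14 and -0.31 in the fasting libraries and at 0.36, 0.61 and 0.25 in the ad libitum libraries. The diets are separated by more than the spread within either of them. The difference was -0.72 for Sox10, -0.69 for Enpp6, -0.58 for Olig2, -0.56 for Myrf and -0.53 for Gpr17, and smallest for Cspg4 at -0.24. Each ratio gave p = 0.1 in a two-sided exact permutation test, the smallest p that 3 libraries against 3 allow, and 0.1 after adjustment over the 9 ratios, so none could pass 0.05. Without ad libitum replicate 2 the differences stayed negative, from -0.24 for Cspg4 to -0.62 for Enpp6 and Sox10. The 9 ratios share the Pdgfra counts and are not independent of each other.

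With Cspg4 as the precursor gene in place of Pdgfra, the differences were smaller and stayed negative: -0.48 for Sox10, -0.46 for Enpp6, -0.32 for Myrf and -0.18 for Nkx6-2. The diets then overlapped for Nkx6-2 (exact permutation p = 0.3) and for Olig2 (difference -0.34, exact permutation p = 0.2). With Olig1, itself lower under fasting, as denominator, the diets overlapped for Olig2, Nkx2-2, Gpr17, Nkx6-2 and Myrf, with differences of -0.12, -0.03, -0.07, 0.04 and -0.10, and did not for Sox10 (-0.26) and Enpp6 (-0.23). Immature and mature genes were also set against each other, a comparison chosen after the values were seen. Gpr17 to Myrf differed by 0.03 on the log2 scale (exact permutation p = 0.9, adjusted over 4 ratios 0.9) and Enpp6 to Myrf by -0.13 (exact permutation p = 0.3, adjusted 0.533), and in both the libraries of the diets overlapped. Enpp6 to Nkx6-2 was at -0.41, -0.48 and -0.53 under fasting and at -0.32, -0.15 and -0.13 ad libitum, without overlap (difference -0.27, exact permutation p = 0.1, adjusted 0.4).

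**Figure D3:**
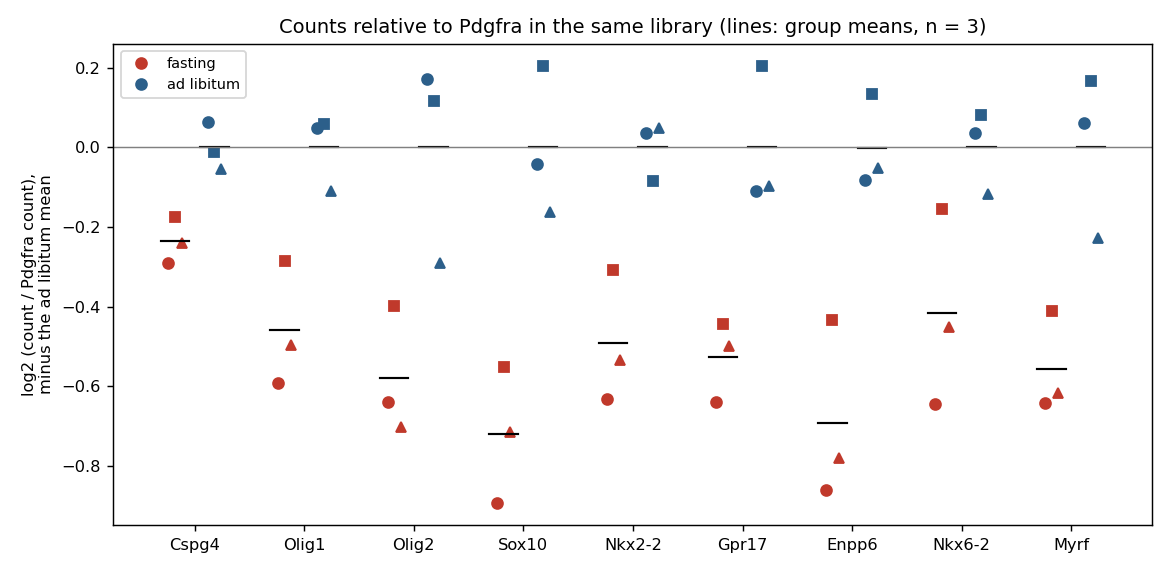
Log2 of each gene's count over the Pdgfra count of the same library, less the ad libitum mean (vertical axis), for 3 fasting libraries (red, left of each pair) and 3 ad libitum libraries (blue, right), with circles, squares and triangles for replicates 1, 2 and 3 and lines for group means. Every red point lies below every blue point of its gene; the red means run from -0.24 for Cspg4 to -0.72 for Sox10.

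Levels can be compared between the genes only per length, here as CPM per kilobase of the longest coding transcript. Olig1 was the highest, at 83.0 ± 8.42 under fasting and 116 ± 9.29 ad libitum (SD, n = 3 each). Myrf (23.3 ± 1.85 under fasting, 35.3 ± 5.34 ad libitum) and Sox10 (21.2 ± 2.37 under fasting, 35.9 ± 6.20 ad libitum) came next and did not differ from each other beyond their spread. Nkx6-2 (19.0 ± 3.13 under fasting, 25.8 ± 2.43 ad libitum) and Olig2 (18.9 ± 1.91 under fasting, 28.9 ± 4.20 ad libitum) were also within each other's spread. Pdgfra stood at 10.7 ± 0.136 under fasting and 10.9 ± 0.807 ad libitum. Gpr17, at 7.17 ± 0.471 under fasting and 10.7 ± 1.93 ad libitum, was below Pdgfra under fasting and within its spread ad libitum. Nkx2-2, Enpp6 and Cspg4 were the lowest, between 3.38 and 4.33 under fasting and between 4.07 and 6.22 ad libitum. With the mean length of coding transcripts Pdgfra (22.7 under fasting, 23.2 ad libitum) lay well above Gpr17, and Enpp6 (7.40 under fasting, 12.2 ad libitum) just above it. Myrf, at 56.5 ad libitum, was then above Sox10 at 47.1 in that group. The order below Olig1 thus depends on the transcript length used.

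Other genes of the lineage were read as lists, by stage. The counts in this and the later lists stand beside the shares of all genes tested. At an unadjusted p below 0.05 these were 20.4%, with 11.6% lower and 8.74% higher, and 0.497% were called. Of 18 further precursor genes 0 were called and 2 (11.1%) had an unadjusted p below 0.05, both lower under fasting. They were Rlbp1, a retinoid-binding protein gene, at -0.56 and Sox6, a SOX factor that restrains differentiation, at -0.50. The median of the list was -0.04, with 11 genes below 0 and 7 above, and it came to -0.07 without ad libitum replicate 2 and 0.01 without ad libitum replicate 3. The summed level of these precursor genes was 1246 to 1319 CPM under fasting and 1281 to 1373 CPM ad libitum, ranges that overlap. The proteoglycan genes Vcan (-0.09) and Cspg5 (0.03), chosen after their values were seen, were near 0.

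Of 16 further genes of the immature stage 0 were called. An unadjusted p below 0.05 was found for 5, all lower, among them Lims2, which overlaps exons of Gpr17. They included Bmp4, a bone morphogenetic protein gene, at 1.01 ± 0.0380 CPM under fasting and 2.14 ± 0.710 CPM ad libitum (log2 fold change -1.08, edgeR adjusted p = 0.103), and Bcas1, a marker of early myelinating cells, at 291 ± 43.6 CPM under fasting and 444 ± 71.4 CPM ad libitum (-0.61, edgeR adjusted p = 0.101). The median was -0.12, and -0.18 without fasting replicate 1, so most of this list lay nearer to 0 than Gpr17 and Enpp6 did. In Tcf7l2, a factor of the immature stage that thalamic neurons also make and a gene picked once its value was known, the SE of 0.92 exceeded the log2 fold change of 0.07. Tcf7l2 was at 14.2 CPM in ad libitum replicate 2, against 127 to 216 CPM in the other libraries.

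Of 22 mature genes, 1 was called, lower under fasting, and 18 had an unadjusted p below 0.05, all lower. The log2 fold changes of all 22 were below 0. The called gene was Gjb1, which encodes the gap junction protein connexin 32, at 24.6 ± 3.72 CPM under fasting and 44.7 ± 4.32 CPM ad libitum (log2 fold change -0.86, SE 0.12, edgeR adjusted p = 0.0485). The call held in 6 of 15 alternatives, and was lost without fasting replicate 1 or 3, without ad libitum replicate 2 or 3, with limma-voom and with library totals only, among others. The list median was -0.57, between those of the immature and the mature members, and -0.41 without ad libitum replicate 2. The summed level was 10919 to 13567 CPM under fasting and 15332 to 20907 CPM ad libitum, with the highest value in ad libitum replicate 2.

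**Figure D4:**
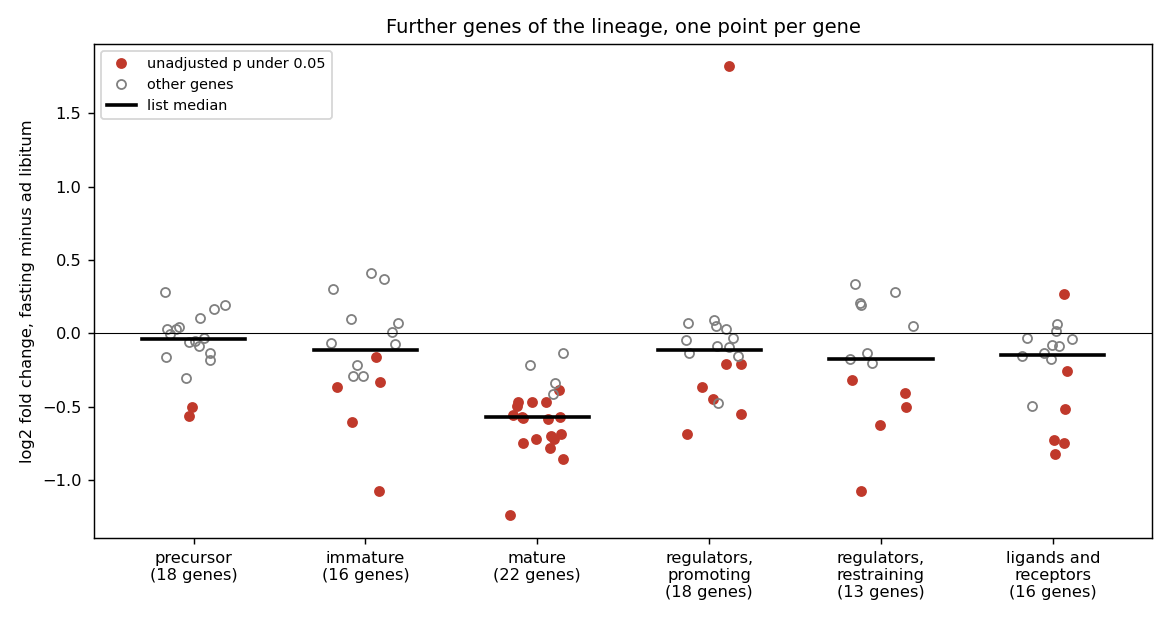
Log2 fold change, fasting minus ad libitum (vertical axis), of single genes in 6 lists of the lineage, with filled red points for an unadjusted p below 0.05, open points for other genes and black lines for list medians. The median is -0.04 for the 18 precursor genes, -0.12 for the 16 immature genes and -0.57 for the 22 mature genes.

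Among 18 further regulators that promote differentiation, 13 had a log2 fold change below 0 and 1 was called, lower under fasting. The called gene was Qki, an RNA-binding protein gene whose product stabilises myelin messages. It was at 466 ± 13.7 CPM under fasting and 682 ± 56.7 CPM ad libitum (log2 fold change -0.55, SE 0.07, edgeR adjusted p = 0.0427). This call held in 7 of 15 alternatives and was lost when any library other than ad libitum replicate 1 was left out. In this list 6 were lower and 1 higher at an unadjusted p below 0.05, and the median was -0.12. Zeb2, a zinc finger factor needed for myelination and also made by microglia, was at -0.69 (edgeR adjusted p = 0.0708). Sox8 (-0.45) and Zfp488 (-0.37), partners of Sox10 and Olig2 in the lineage, were also lower at that unadjusted p, as was the chromatin factor Chd7 (-0.21), while the chromatin factors Chd8 (0.09), Hdac1 (-0.14) and Hdac2 (-0.03) did not pass it. The 1 higher gene was Nkx6-1, a relative of Nkx6-2 that marks some midbrain neurons, at 1.45 CPM under fasting and 0.410 CPM ad libitum (edgeR adjusted p = 0.128). The values of the genes of this list other than Qki and Zeb2 were known when they were picked.

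Of 13 regulators that restrain differentiation 0 were called and 5 were lower at an unadjusted p below 0.05, with a median of -0.17, which came to -0.07 without fasting replicate 2 and -0.09 without ad libitum replicate 3. Tmem98, whose product holds back the cleavage of Myrf, was at 12.3 ± 2.02 CPM under fasting and 19.0 ± 2.24 CPM ad libitum (log2 fold change -0.63, edgeR adjusted p = 0.0819). Tfeb, a lysosomal regulator that represses myelination, was at 10.5 ± 0.297 CPM under fasting and 13.9 ± 1.27 CPM ad libitum (-0.41, edgeR adjusted p = 0.0798). Sox6 and Bmp4, described above, are also in this list.

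Of 16 ligands and receptors of the lineage 0 were called, 5 were lower and 1 higher at an unadjusted p below 0.05, and the median was -0.15, which came to -0.23 without ad libitum replicate 1 and -0.04 without ad libitum replicate 3. Pdgfa, the main ligand of the Pdgfra receptor, was at 40.1 CPM under fasting and 39.8 CPM ad libitum (log2 fold change 0.01, SE 0.06, edgeR adjusted p = 0.932). Fgfr2, a fibroblast growth factor receptor of mature oligodendrocytes, was at -0.75 (edgeR adjusted p = 0.0599) and Erbb3, a neuregulin receptor, at -0.73 (edgeR adjusted p = 0.0685). The higher gene was Fgfr3 (0.27, edgeR adjusted p = 0.120), a receptor of precursors and astrocytes. Pdgfa and Fgfr3 are named with their values already known.

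Of 8 proliferation genes 5 were tested and 0 called. Top2a, a topoisomerase of dividing cells, was at 0.460 ± 0.0634 CPM under fasting and 0.935 ± 0.0820 CPM ad libitum (log2 fold change -1.01, edgeR adjusted p = 0.0798), and the replication gene Mcm2 at -0.40 (edgeR adjusted p = 0.123). The median was -0.30, and -0.15 without ad libitum replicate 2.

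Lists of genes of other cell types held 1 call, in microglia. Of 8 microglial genes all had an unadjusted p below 0.05 and were lower, 1 of them called (Fcrls, a microglial receptor gene, log2 fold change -1.11, edgeR adjusted p = 0.0422, called in 7 of 15 alternatives and lost when any library other than ad libitum replicate 1 was left out), with a summed level of 262 to 269 CPM under fasting and 330 to 461 CPM ad libitum. Of 8 astrocyte genes 4 were lower at that p and 0 called, with a median of -0.24 (-0.13 without ad libitum replicate 3) and a sum of 3506 to 3734 CPM under fasting and 3837 to 4796 CPM ad libitum. Of 8 neuronal genes all had a log2 fold change above 0, with a median of 0.14 (0.24 without ad libitum replicate 1 and 0.06 without ad libitum replicate 2), 1 at that p and 0 called, and their sums overlapped, at 6102 to 6484 CPM under fasting and 5035 to 6420 CPM ad libitum. Among 6 dopaminergic genes 0 were called, the sums overlapped and the median was -0.24, with values of -0.51 without fasting replicate 2 to 0.35 without ad libitum replicate 3. The 6 genes of neighbouring regions, among them Chat and Pmch, gave a median of -2.55, none called, which came to -0.76 without ad libitum replicate 2, and for 5 erythroid genes the median was -1.13, again none called, and -0.32 without ad libitum replicate 3, whose erythroid sum of 1736 CPM compares with at most 657 CPM elsewhere. By smallest p the lists were led on the log2 scale by Fcrls in microglia, Aqp4 (-1.01) and S100b (-0.44) in astrocytes, Stmn2 (0.23) and Syn1 (0.19) in neurons, and Nr4a2 (0.63) and Slc6a3 (-0.50) in dopaminergic neurons. Tph2 (-1.98) and Slc5a7 (-3.12) led the neighbouring regions, and Hbb-bt (-1.32) and Hba-a1 (-1.13), which share sequence with other globin genes, led the erythroid list. No gene of the astrocyte, neuronal, microglial, fibroblast or pericyte lists was below 1 CPM in all libraries. The part of these cell types in the values of the lineage genes was not tested.

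The genes most like 3 of the members over the 6 libraries were found by Pearson correlation of log2 CPM among 12171 genes at 5 CPM or more. Nearest to Pdgfra were Slc2a12, a sugar transporter gene (r = 0.994), Prelp (0.993) and Bcl10 (0.992). Nearest to Enpp6 were Trim36 (r = 0.997), Snx33 (0.996) and Klhl4 (0.996), and nearest to Myrf were the lysophosphatidic acid receptor gene Lpar1 (r = 0.998), Usf2 (0.998) and the haem transporter gene Slc48a1 (0.998). Correlations over 6 libraries in 2 diet groups are high for many genes: 410 exceeded 0.95 with Enpp6, 367 with Myrf and 40 with Pdgfra. Trim36 was at 11.3 ± 1.81 CPM under fasting and 18.5 ± 2.65 CPM ad libitum, and Lpar1 at 46.3 ± 5.11 CPM under fasting and 81.7 ± 17.3 CPM ad libitum. Prelp had its lowest value, 10.2 CPM, in ad libitum replicate 1 and its highest, 18.4 CPM, in ad libitum replicate 2. Pdgfra had the same order, a likeness that comes with the choice of Prelp by correlation.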

How the data were processed

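Per the labels' protocols, libraries came from a directional NEBNext Ultra II kit and column-purified RNA (RNeasy). The authors deposited estimated counts per gene, as unscaled whole numbers. The submitters' processing notes name Salmon, DESeq2 1.40.2 and the build GRCm39; the annotation and strand setting do not appear in the sources used here. All 6 columns were matched to libraries by the names in the labels.

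The counts were already whole. Genes were filtered with filterByExpr (19109 kept, 142 not tested), scaled by TMM, and compared with edgeR 4.0.16 (R 4.3.3), quasi-likelihood, two-sided, with robust shrinkage and Benjamini-Hochberg adjustment over all genes tested, called at an adjusted p below 0.05. Each log2 fold change is fasting over ad libitum, SE is the size of the log2 fold change over the square root of F, and levels are CPM after TMM. Ratios used counts plus 0.5. DESeq2 1.42.0, limma 3.58.1, other scalings and filters, and fits without each library were alternatives. The fits were tested on simulated data, where the share of false calls was above the nominal level with edgeR and higher still with DESeq2. No 2 libraries agreed within counting noise (smallest chi-square per degree of freedom 8.28). Depth differed little, so the spread between samples limits precision.

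The members and the 15 lists were chosen with earlier results of these data known. Named genes were the members, called genes and the 2 of smallest p in each list, Th, Slc6a3 and the genes most like 3 members. Any other gene was picked with its values known. Some genes chosen by this rule are not reported here. Transcript lengths and overlaps come from GENCODE M21 on GRCm38, in which at most 0.836% of a member's words of 31 bases occurred in other genes. RefSeq promoter windows were read for 6 of the 10 members, with Gpr17 left out by rule, and only windows free of exons are printed.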

Additional observations from a re-analysis of the deposited data

How the results depend on the processing

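Over 15 alternatives, 9 regulators stayed at an unadjusted p below 0.05 in each, where 12.8% to 27.4% of all genes passed in either direction. No log2 fold change of a member changed sign, with Pdgfra ranging from -0.10 to -0.01 and Sox10 from -0.84 to -0.61. Whether members pass the adjusted threshold depended on the setting. The number called was 9 with DESeq2, 5 with the replicate block, 6 without ad libitum replicate 1 and 0 when any other single library was left out. It was also 0 in the main fit, with limma-voom, with each of the other scalings and filters, and without robust shrinkage. Of all genes, the share called lower was 4.51% with DESeq2, 1.16% with the replicate block and 3.89% without ad libitum replicate 1. The cause was not tested. All-gene calls, 95, were 1395 with DESeq2, 32 with limma-voom, 10 with library totals only, 9 without robust shrinkage and 285 with the replicate block. Leaving out single libraries gave 0 to 1187: among ad libitum libraries, omitting replicate 1 gave 1187, replicate 2 gave 45 and replicate 3 gave 1. Omitting fasting replicate 1 or 3 gave 0, with 2452 and 2495 genes at an unadjusted edgeR p below 0.05. The share of higher calls, 29.5%, was 39.1% with DESeq2, 53.1% with limma-voom, 80% with library totals only and 77.8% without robust shrinkage. Deviations of same-numbered libraries from their group means had correlations of 0.21, -0.04 and -0.11, and differently numbered ones lay between -0.14 and 0.19. With 3 libraries per group these correlations cannot show whether the numbers pair libraries. The labels do not state it, so the block count is a value only. With Olig1 in place of Pdgfra as denominator, Cspg4 was at 0.22 and Nkx6-2 at 0.041, the reverse of their signs against Pdgfra, and the other ratios lay nearer to 0 than against Pdgfra. Across these alternatives, each stage median moved from its main value by less than the pooled SD between replicates within a diet. Depth does not limit these genes, the lowest member count being 365.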
